A study of Rattus norvegicus with 15 samples.

Results

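The endothelial genes of bone vessels were followed by name: Cdh5, Pecam1, Emcn, Kdr, Tek, Tie1, Flt1, Eng, Apold1 and Plvap. Of these 10 genes, 9 had a row under that name among the 22468 genes of the deposited table, and all 9 passed the low-count filter that left 17657 genes for testing. Pecam1 was not analysed here. Bone of female rats of the Sprague-Dawley strain gave 15 libraries of poly(A) RNA, 3 for each of 5 groups. Blank stands for rats with no treatment and with their ovaries. Rats of the Model group had their ovaries removed, the main source of oestrogen, and are labelled as having osteoporosis. The groups SYT, YJT and YJZYT were ovariectomized as well, and no label spells out what each was given. The study is about a herbal medicine, Zhuanggu Zhitong Capsule, without a label that ties it to one of these groups. No sham operation is described for Blank, so the operation itself and the missing ovaries cannot be told apart. The labels used here give no age, do not say which bone was taken and name no separate animals, so the spread behind each p-value is that between samples and may be technical. A library is named by its group and replicate number, so that Model2 is replicate 2 of Model.

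Endothelial cells line every blood vessel, and in bone they form arterioles, capillaries and the wide sinusoids of the marrow. Vessels rich in endomucin lie close to bone-forming cells and are known to accompany bone growth, and oestrogen loss is a known setting in which bone vessels are studied. The genes fall into roles. Cdh5 encodes VE-cadherin, which holds endothelial cells together. Emcn encodes endomucin, a surface sialomucin, and Plvap forms the diaphragms of vessel pores. Kdr and Flt1 encode receptors of vascular endothelial growth factor, Kdr the main signalling receptor and Flt1 a receptor that also acts as a decoy. Tek encodes Tie2, the receptor of the angiopoietins, and Tie1 its partner. Eng encodes endoglin, a co-receptor of the TGF-beta family. Apold1 encodes an endothelial protein known to respond early to stimulation.

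The start regions of 3 of these genes are printed because Tie1 and Plvap varied together across the libraries while Apold1 did not follow them. Promoters of 300 bases, 250 before and 50 after the annotated start, were taken from RefSeq on the GRCr8 assembly, where 7 of the 9 genes had an entry and Cdh5 and Tek were not matched. Capitals mark AGGAAG or its reverse complement CTTCCT, letters that contain the core recognised by ETS factors, a family known for its role in endothelial cells. The windows are Tie1 at chr5:137304932-137305231 on the minus strand, Plvap at chr16:18231230-18231529 on the minus strand and Apold1 at chr4:169552349-169552648 on the plus strand, each written 5′ to 3′ along its gene.
Tie1: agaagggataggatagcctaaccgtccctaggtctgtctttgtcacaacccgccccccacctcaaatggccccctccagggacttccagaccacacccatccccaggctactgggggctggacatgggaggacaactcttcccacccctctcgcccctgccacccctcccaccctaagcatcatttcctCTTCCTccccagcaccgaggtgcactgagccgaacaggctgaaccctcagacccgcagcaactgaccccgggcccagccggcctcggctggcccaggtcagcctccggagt
Plvap: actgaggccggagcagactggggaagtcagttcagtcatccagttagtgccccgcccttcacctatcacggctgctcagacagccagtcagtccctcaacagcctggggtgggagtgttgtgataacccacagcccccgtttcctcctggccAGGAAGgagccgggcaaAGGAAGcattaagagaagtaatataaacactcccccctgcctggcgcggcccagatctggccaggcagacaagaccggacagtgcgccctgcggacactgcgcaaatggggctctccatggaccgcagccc
Apold1: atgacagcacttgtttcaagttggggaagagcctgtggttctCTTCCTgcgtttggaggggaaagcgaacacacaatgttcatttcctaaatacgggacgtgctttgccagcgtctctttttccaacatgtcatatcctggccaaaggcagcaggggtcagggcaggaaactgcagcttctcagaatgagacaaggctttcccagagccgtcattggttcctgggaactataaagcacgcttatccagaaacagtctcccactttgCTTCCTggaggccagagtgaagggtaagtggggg
Over both strands these 6 letters occurred in 6 of the 7 promoters, all but that of Kdr, and in 34.5% of all 33469 RefSeq promoters of the same length. The longer form CCGGAAG, found in 8.75% of all promoters, occurred in 0 of the 7, and so did the GATA letters AGATAA, found in 11.6%. The cAMP response element TGACGTCA, found in 1.83% of all promoters, occurred in Flt1 alone. TATAAA occurred in Apold1, Flt1 and Plvap and in 14.2% of all promoters. The SOX letters ACAATG occurred in Apold1 alone and in 13.2% of all promoters, and the shorter element core TGACG in Apold1 and Flt1 and in 21.2% of all promoters. Apold1 and Plvap thus shared AGGAAG and TATAAA, while ACAATG and TGACG were in the Apold1 window and not in that of Plvap. These matches describe letters in the windows, with no binding measured.

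The deposited table places the genes as follows, on a genome build not given in the sources used here, so these positions are not to be set beside the GRCr8 windows. Cdh5 (ENSRNOG00000013324) lies on chr19:1023683-1074365, minus strand. Emcn (ENSRNOG00000022910) lies on chr2:242634399-242714182, plus strand. Kdr (ENSRNOG00000046829) lies on chr14:34727623-34787183, plus strand. Tek (ENSRNOG00000008587) lies on chr5:113725717-113852799, plus strand. Tie1 (ENSRNOG00000020173) lies on chr5:137294544-137321121, minus strand. Flt1 (ENSRNOG00000000940) lies on chr12:9034308-9205905, plus strand. Eng (ENSRNOG00000050190) lies on chr3:11679530-11717485, plus strand. Apold1 (ENSRNOG00000007830) lies on chr4:168752133-168755023, plus strand. Plvap (ENSRNOG00000017676) lies on chr16:19906318-19918689, minus strand.

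Library totals ran from 64472700 to 74255667 counts, and the 9 genes took between 406 counts, for Flt1 in YJZYT3, and 5425 counts, for Tie1 in SYT3. In bulk RNA, fewer endothelial cells and less RNA per endothelial cell cannot be told apart, which holds for every value given here. Levels between genes are compared in FPKM, the authors' value per gene length and library, as mean ± SD over all 15 libraries. The surface and pore genes were among the most abundant, with Emcn at 13.0 ± 5.55 and Plvap at 10.4 ± 5.3. Apold1 stood at 11.9 ± 3.88, Tie1 at 9.99 ± 2.7 and Eng at 9.59 ± 3.75. Cdh5 followed at 8.01 ± 4.01 and Tek at 6.11 ± 2.4. The receptors of vascular endothelial growth factor were lowest, with Kdr at 3.41 ± 1.43 and Flt1 at 2.8 ± 1.52. Neighbours in this order differed by less than the SD of either gene, except Tek and Kdr.

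Between libraries, values are counts scaled to library size (CPM) scaled with TMM factors. Plvap varied most, with its highest library 7.22 times its lowest, followed by Cdh5 with 6.22 times and Flt1 with 6.05 times. Apold1 and Tie1 varied least, with 2.59 times and 2.54 times. SYT3 held the highest value for 7 of the 9 genes (Cdh5, Emcn, Tek, Tie1, Flt1, Eng and Plvap), and YJZYT3 held the lowest value for 7 (Cdh5, Kdr, Tek, Tie1, Flt1, Eng and Plvap). In group means, Blank was highest for 7 of the 8 genes other than Apold1, and SYT for Plvap. YJZYT was lowest for all 8. For these 8 genes no neighbouring groups in the order of means were free of overlap. The plot of CPM by library shows both the group order and the reach of these single libraries.

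**Figure D1:**
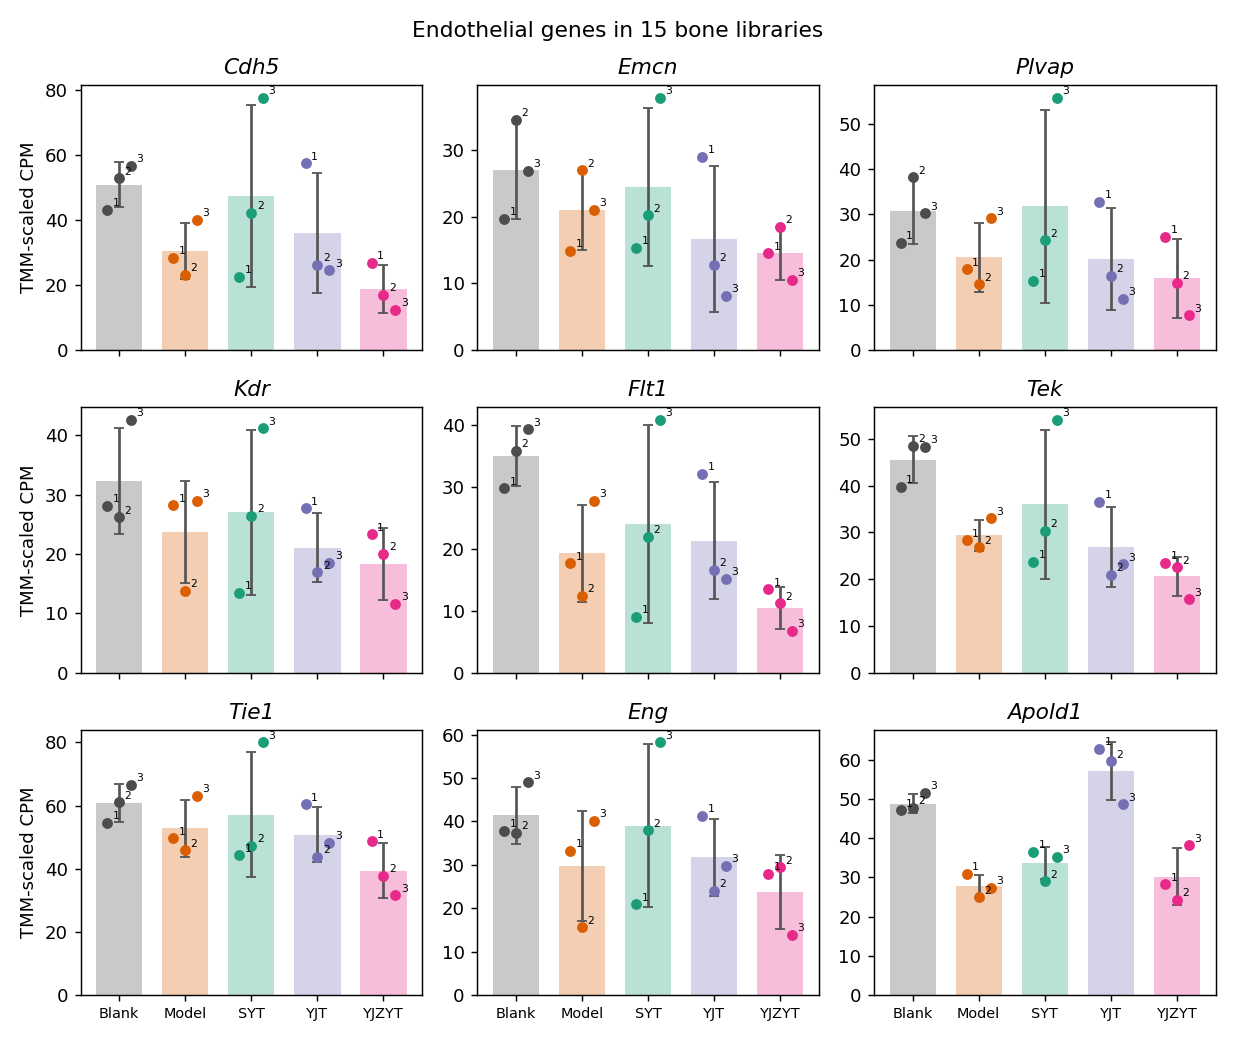
TMM-scaled CPM (vertical axis) of the 9 endothelial genes in each of the 15 libraries, by group, with points for libraries and bars for the group means. Apold1 is highest in Blank and YJT, with all their libraries above those of the other groups, whereas the other 8 genes spread most in SYT, where SYT3 is far above SYT1.

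Cdh5, the junction gene, stood at 43.2, 52.8 and 56.6 CPM in Blank and at 28.4, 23.2 and 40.0 CPM in Model. It reached 22.5, 42.2 and 77.6 CPM in SYT, 57.4, 26.2 and 24.6 CPM in YJT, and 26.9, 17.1 and 12.5 CPM in YJZYT. Every Blank library lay above every Model library, while SYT had the widest range of the groups and YJZYT overlapped Model only through YJZYT1. Emcn ran from 19.7 to 34.5 CPM in Blank and from 14.9 to 26.9 CPM in Model, with its lowest value of 8.1 CPM in YJT3. Plvap ran from 23.7 to 38.2 CPM in Blank, from 14.6 to 29.1 CPM in Model and from 15.3 to 55.8 CPM in SYT. For Emcn and Plvap, Blank and Model overlapped.

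Flt1 stood at 29.8, 35.9 and 39.4 CPM in Blank and at 17.7, 12.4 and 27.8 CPM in Model. It was at 9.07, 22.0 and 40.9 CPM in SYT, 32.2, 16.6 and 15.2 CPM in YJT, and 13.5, 11.2 and 6.76 CPM in YJZYT. Blank did not overlap Model, and the YJZYT libraries lay below all 3 YJT libraries. Kdr, the other receptor of the same ligand family, was at 28.1, 26.2 and 42.6 CPM in Blank and at 28.2, 13.8 and 29.0 CPM in Model, so that its Blank and Model libraries interleaved.

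Tek stood at 39.8, 48.6 and 48.3 CPM in Blank and at 28.3, 26.8 and 33.0 CPM in Model. It was at 23.7, 30.3 and 54.1 CPM in SYT, 36.6, 20.9 and 23.2 CPM in YJT, and 23.5, 22.5 and 15.7 CPM in YJZYT. All Blank libraries lay above all Model libraries, and all YJZYT libraries lay below all Model libraries. Its partner Tie1 ran from 54.6 to 66.6 CPM in Blank, from 45.8 to 63.1 CPM in Model and from 31.5 to 48.7 CPM in YJZYT, with overlap between each pair of groups next to each other. Eng ran from 37.4 to 49.0 CPM in Blank and from 15.6 to 40.2 CPM in Model, with Model2 the lowest of the Model libraries.

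Apold1 stood at 47.1, 47.8 and 51.6 CPM in Blank, 30.9, 24.9 and 27.3 CPM in Model, and 36.6, 29.0 and 35.2 CPM in SYT. It was at 62.9, 59.7 and 48.7 CPM in YJT and at 28.2, 24.3 and 38.2 CPM in YJZYT. Blank and YJT lay above all libraries of Model, SYT and YJZYT, which overlapped one another, and YJT overlapped Blank only through YJT3. The order of means was YJT, Blank, SYT, YJZYT, Model, unlike that of the other 8 genes.

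The first comparison asks what bone after ovariectomy looked like beside untreated bone. All 9 genes had a mean below that of Blank in Model. The median log2 fold change was -0.58, beside 0.02 over all 17657 genes, of which 48.3% were lower. None passed edgeR's quasi-likelihood test after Benjamini-Hochberg adjustment over all genes at 0.05 (0 of 9), where 0.0227% of all genes did. At an unadjusted p under 0.05 there were 2 of 9, Tek and Apold1, against 8.19% of all genes. DESeq2 called Apold1 among 301 of 18527 genes. With limma on log2(FPKM + 1), none of the 9 and 40 of 13944 genes were called. The groups did not overlap, with Model lower, for 4 of 9 (Cdh5, Tek, Flt1 and Apold1), against 7.99% of all genes.

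Of the junction and receptor genes, Flt1 had a log2 fold change of -0.86 ± 0.48 (SE; edgeR adjusted p = 0.706), Cdh5 of -0.74 ± 0.44 (adjusted p = 0.736) and Tek of -0.64 ± 0.29 (adjusted p = 0.601). The remaining receptors and surface genes ran from -0.58 for Plvap to -0.20 for Tie1. Flt1 and Cdh5 as well as these genes depended on single libraries. With 1 library left out at a time, Flt1 ran from -1.26 (without Model3) to -0.62 (without Model2) and Cdh5 from -1.03 to -0.57 at the same libraries. In the same way, Plvap ran from -0.97 (without Model3) to -0.39 (without Model2) and Tie1 from -0.40 to -0.11 at the same libraries. Kdr ran from -0.67 (without Model3) to -0.17 (without Model2), Eng from -0.81 to -0.17 at the same libraries, and Emcn from -0.60 (without Blank1) to -0.15 (without Blank2). Apold1 had the narrowest error, with -0.82 ± 0.18 and a 95% interval of -1.20 to -0.44, at an unadjusted edgeR p of 0.000442 and an adjusted p of 0.246. Under DESeq2 its adjusted p was 0.00484, and over all alternatives it ran from 0.00484 to 0.965. The plot of fold changes shows all 9 estimates on the negative side in this comparison.

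**Figure D2:**
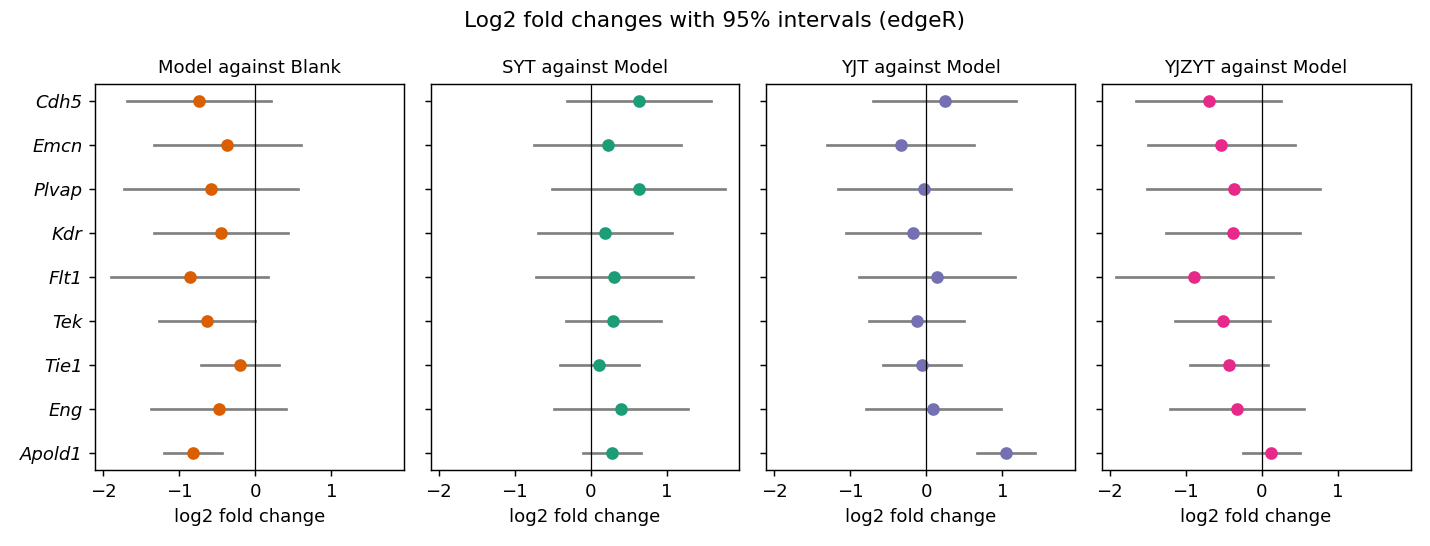
Log2 fold changes from edgeR (horizontal axis) with 95% intervals for the 9 endothelial genes, 1 panel per comparison, with a line at zero. In Model against Blank all 9 points lie below zero, and in YJT against Model Apold1, at 1.05, is the 1 gene whose interval lies wholly above it.

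Skeletal muscle markers moved with this comparison. Of 12 muscle markers, 10 were in the table, none was at 0 in any library, and their summed FPKM ran from 3070 to 4680 in Blank and from 196 to 570 in Model. In the other groups it ran from 382 to 2480 for SYT, from 1880 to 2100 for YJT and from 24.6 to 517 for YJZYT. All 10 had lower values in Model than in Blank, without overlap. With the muscle score of each library as a covariate, an alternative chosen after seeing the data, the median of the 9 genes in Model against Blank was -0.13 in place of -0.58, and that of Apold1 was -0.72 (edgeR adjusted p = 0.965). Since no Blank library overlapped a Model library in these markers, amount of muscle and group cannot be told apart here. Osteoblast markers, 8 of 9 in the table and none at 0, overlapped between Blank, at 3910 to 9970 summed FPKM, and Model, at 5300 to 12700. Other marker lists were lower in Model too, where 48.3% of all genes were lower and 7.99% were lower without overlap. Adipocyte markers were lower for 8 of 8 (median -1.18, 4 without overlap), with a summed FPKM of 149 to 203 in Blank and 104 to 117 in Model, and Lep and Plin4 at 0 in some library. Megakaryocyte and platelet markers were lower for 9 of 9 (median -0.84), at 919 to 1870 summed FPKM in Blank and 398 to 1680 in Model. Erythroid markers were lower for 7 of 7 (median -0.63), at 1700 to 2790 and 834 to 2000. Haematopoietic precursor markers were lower for 7 of 8 (median -0.62), at 35.8 to 53.1 and 22.0 to 50.7, with Hlf at 0 in some library. Monocyte and macrophage markers were lower for 7 of 10 (median -0.09, 3 without overlap), at 326 to 409 and 260 to 291. The part of the lists from adipocyte to monocyte markers in the values of the endothelial genes was not tested.

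The other comparisons set each further ovariectomized group against the same 3 Model libraries, so they are not independent of one another or of the comparison with Blank. In SYT against Model all 9 genes had a higher mean, with a median log2 fold change of 0.30 beside 0.02 over all genes, of which 53.2% were higher. Adjusted edgeR calls were 0 of 9 (0% of all genes), unadjusted ones 0 of 9 (3.16%), and 0 of 9 separated the groups (3.24% of all genes with SYT higher). DESeq2 and limma called 0 of the 9 as well, where DESeq2 called 28 of 20705 genes and limma 0 of 13944. The largest estimate was Cdh5 at 0.64 ± 0.44 (edgeR adjusted p = 1). The direction rested on SYT3: without it the median was -0.12. With no scaling factors 7 of 9 genes stayed higher, while Kdr was at -0.03 and Tie1 at -0.12, both above the median of all genes in that setting, which was -0.22. With limma on log2(FPKM + 0.1) the median of the 9 genes was -0.03, beside -0.25 over all genes. SYT3 also had the highest osteoblast score of the series, 1.76 above the mean of the 15 libraries on the log2 scale, and summed osteoblast FPKM ran from 3950 to 17400 in SYT. With that score as a covariate, chosen after seeing the data, the median was 0.19.

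In YJT against Model the genes were divided, with 4 higher (48.2% of all genes) and 5 lower and a median of -0.02, equal to the -0.02 of all genes. Eng and Flt1, among the 4 higher, were at -0.05 and -0.01 with no scaling factors, which moved the median of all genes to -0.16. Adjusted edgeR calls were 0 of 9 (0% of all genes), and 1 of 9 had an unadjusted p under 0.05 (6.58%). That gene was Apold1, the only one of the 9 whose YJT libraries all lay above Model (6.83% of all genes). Its log2 fold change was 1.05 ± 0.18 (95% interval 0.66 to 1.43) at an unadjusted edgeR p of 4.94e-05 and an adjusted p of 0.175. DESeq2 gave an adjusted p of 0.000119, with 97 of 20270 genes called, and limma called none of the 9 and 0 of 13944 genes. The adjusted p of Apold1 over all alternatives ran from 0.000119 to 0.95. All 10 muscle markers were also higher in YJT than in Model without overlap (median 2.42), and with the muscle score as a covariate Apold1 had a log2 fold change of 0.97 (edgeR adjusted p = 0.821). The remaining 8 genes lay between -0.33 for Emcn and 0.24 for Cdh5. With the osteoblast score as a covariate, chosen after seeing the data, the median of the 9 was 0.53, and summed osteoblast FPKM ran from 875 to 6140 in YJT.

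In YJZYT against Model 8 of 9 genes had a lower mean, with a median of -0.43 beside -0.07 over all genes, of which 57.6% were lower. Adjusted edgeR calls were 0 of 9 (0% of all genes) and unadjusted ones 0 of 9 (7.29%), while DESeq2 and limma also called 0. Over all genes DESeq2 called 63 of 18963 and limma 0 of 13944. Tek was the 1 gene whose YJZYT libraries all lay below Model (5.57% of all genes), at -0.51 ± 0.29 (edgeR adjusted p = 0.735). Flt1 had -0.88 ± 0.48 (adjusted p = 0.718) and Cdh5 -0.70 ± 0.44 (adjusted p = 0.759). Apold1 was at 0.13, and at -0.03 with no scaling factors, which moved the median of all genes to -0.22. Markers of other cells had unequal means as well, with none of the erythroid, osteoblast or muscle markers past edgeR's adjusted threshold. All 7 erythroid markers in the table (8 listed, none at 0) were higher in YJZYT, where 57.6% of all genes were lower. Their median log2 fold change was 1.38, and the smallest edgeR adjusted p among them was 0.638. Their summed FPKM ran from 834 to 2000 in Model and from 2170 to 4120 in YJZYT. All 8 osteoblast markers were lower (median -0.71, summed FPKM 1210 to 7560 in YJZYT), as were 9 of 10 muscle markers (median -0.71). With the osteoblast score as a covariate the median of the 9 genes was -0.17, with the muscle score -0.27, and the part of the erythroid markers was not tested. Without YJZYT3, the library lowest for 7 genes, the median was -0.29, and without Model3 it was -0.24.

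Between the treated groups, all 9 genes had lower means in YJZYT than in SYT, with a median of -0.75, where 54.4% of all genes were lower. Adjusted edgeR calls were 0 of 9 (0% of all genes), and DESeq2 and limma also called 0 of 9. Over all genes DESeq2 called 280 of 18527 and limma 0 of 13944. At an unadjusted edgeR p under 0.05 there were 4 of 9, against 9.1% of all genes. These were Cdh5 at -1.33 ± 0.44 (adjusted p = 0.424), Flt1 at -1.20 ± 0.48 (0.525), Tek at -0.81 ± 0.29 (0.462) and Tie1 at -0.54 ± 0.24 (0.546). That count depended on the library left out. Of the 9 genes, 0 had an unadjusted p under 0.05 without SYT3, 1 without YJZYT3 and 2 without YJZYT2. It was 4 without SYT2, 5 without YJZYT1 and 7 without SYT1. The share of all genes in these settings is not given here. No left-out library changed the direction of any of the 9 genes. Without SYT3, Cdh5 was at -0.78, Flt1 at -0.57, Tek at -0.39 and Tie1 at -0.22. With the muscle score as a covariate the count was 0, and with the replicate block it was 2.

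In YJZYT against YJT adjusted edgeR calls were also 0 of 9 (0% of all genes), with 1 of 9 at an unadjusted p under 0.05 (6.39%), and YJZYT lay below YJT without overlap for Flt1 and Apold1 (7.59% of all genes). Apold1 had -0.92 ± 0.18 there (edgeR adjusted p = 0.102). Its adjusted p was 0.000575 with DESeq2 and 0.0335 with limma on log2(FPKM + 1), in a range of 0.000575 to 1 over all alternatives. Over all genes DESeq2 called 398 of 18963 there, and limma on log2(FPKM + 1) called 87 of 13944. In YJT against SYT adjusted edgeR calls were 0 of 9 (0% of all genes), with 0 called by DESeq2 or limma. DESeq2 called 8 of 22448 genes there and limma 0 of 13944. Apold1, at 0.77 ± 0.18 (edgeR adjusted p = 0.931), was the 1 gene of 9 at an unadjusted p under 0.05 (3.05%). An F test over all 5 groups gave Apold1 an unadjusted p of 0.000125 and an adjusted p of 0.138, with 0 of 9 genes called (0.0227% of all genes) and 4 of 9 at an unadjusted p under 0.05 (7.71%). Apold1 passed that test with DESeq2 (adjusted p = 2.02e-06) and with limma on log2(FPKM + 1) (0.0242). Those settings called 616 of 18527 and 101 of 13944 genes.

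Across the 15 libraries, 8 of the 9 genes moved as a block and Apold1 stood outside it. Pearson's r of log2 CPM over the 28 pairs without Apold1 ran from 0.55, for Emcn and Eng, to 0.96, for Cdh5 and Flt1 and for Kdr and Eng, with a median of 0.87. After group means were taken out the median was 0.86, so libraries of the same group differed in the same genes. The 8 pairs with Apold1 ran from -0.02 to 0.38, and within groups from -0.19 to -0.01. These r values describe 15 libraries, share library scaling and carry no test.

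**Figure D3:**
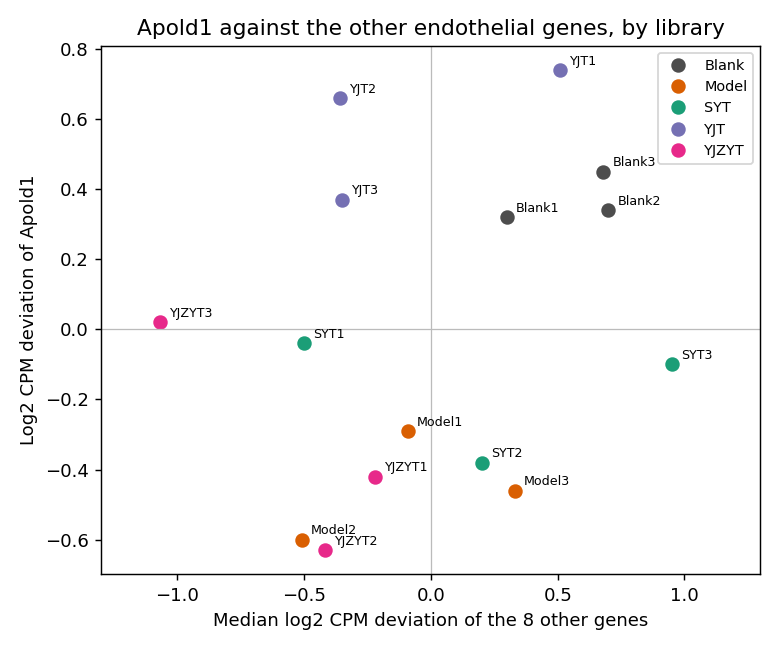
Log2 CPM deviation of Apold1 from its mean over 15 libraries (vertical axis) against the median deviation of the other 8 endothelial genes (horizontal axis), 1 point per library, coloured by group. SYT3, highest on the horizontal axis at 0.95, had 35.2 CPM of Apold1, and YJZYT3, lowest at -1.07, had 38.2 CPM.

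The score of the 8 genes, the median of their log2 deviations from the mean of the 15 libraries, was 0.3, 0.7 and 0.68 in Blank and -0.09, -0.51 and 0.33 in Model. It was -0.5, 0.2 and 0.95 in SYT, 0.51, -0.36 and -0.35 in YJT, and -0.22, -0.42 and -1.07 in YJZYT. The spread within SYT was thus wider than the distance between the highest and lowest group. As summed FPKM the 8 genes gave 34.8, 62.0 and 111 in SYT1 to SYT3, against 75.7, 89.6 and 99.6 in Blank1 to Blank3. Compared with the median of the other genes in the same library, Tek kept closest to them, with an SD of 0.19 on the log2 scale. Emcn departed most among the 8, with an SD of 0.43, from -0.89 in YJT3 to 1.03 in Model2. Apold1 had an SD of 0.62, from -1.05 in SYT3 to 1.09 in YJZYT3.

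Ratios of FPKM between genes of like role, chosen after their values were seen, show where the block was not uniform. Flt1 to Kdr was 0.525, 0.508 and 0.531 in YJZYT and lay between 0.571 and 1.24 in all other libraries. Tek to Tie1 was 0.732, 0.8 and 0.729 in Blank, above every other library, the highest of which was 0.678, and 0.573, 0.587 and 0.525 in Model. The differences were -0.51 on the log2 scale for Flt1 to Kdr in YJZYT against Model and -0.42 for Tek to Tie1 in Model against Blank. In YJT against Model, Emcn to Cdh5 differed by -0.66 and Plvap to Cdh5 by -0.27. These 4 of 20 tests over 5 ratios each had a two-sided exact permutation p of 0.1 and 0.5 after adjustment. Since 0.1 is the smallest p that 3 against 3 libraries allow, no ratio could pass at 0.05. A ratio shows unequal levels of the pair and does not say which of them differed. The plot of ratios gives every library.

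**Figure D4:**
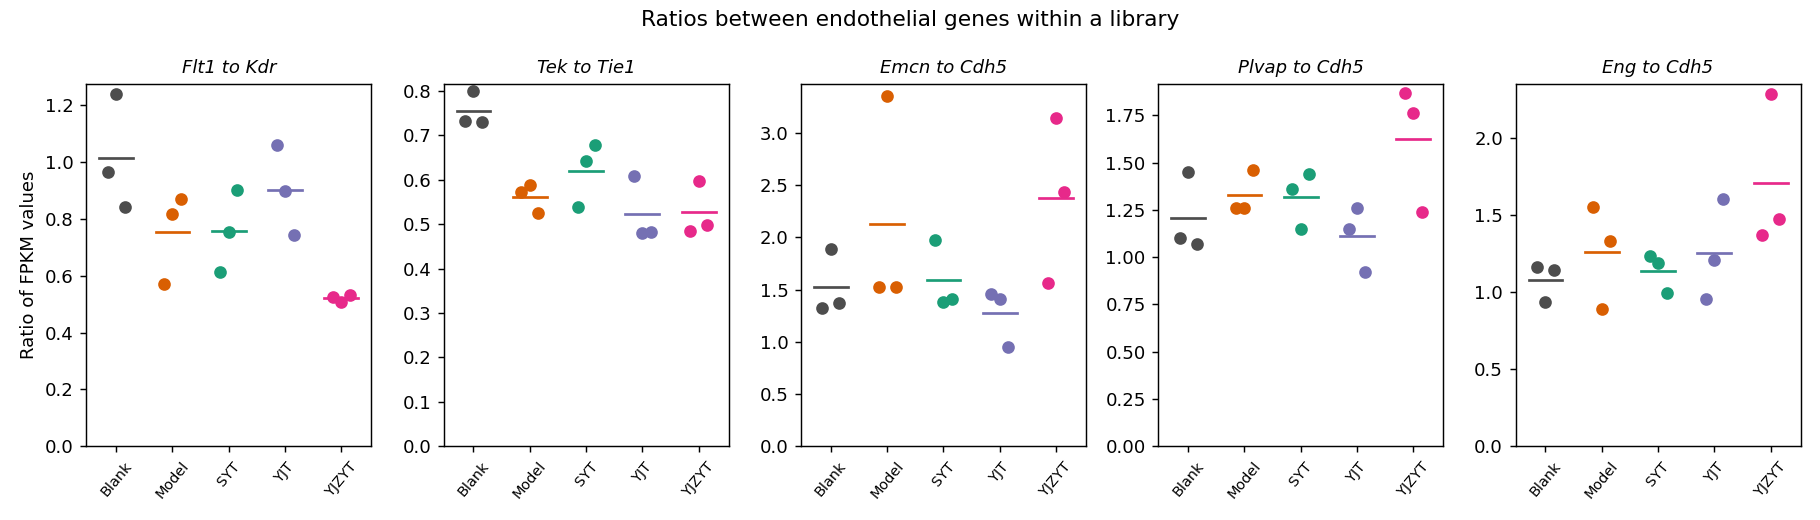
Ratios of FPKM between pairs of endothelial genes (vertical axis), 1 point per library, by group. The 3 YJZYT libraries lie between 0.508 and 0.531 for Flt1 to Kdr, and the 3 Blank libraries between 0.729 and 0.8 for Tek to Tie1.

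Other genes of the vessel wall were counted from lists chosen with earlier results of these data known, and none of their genes passed edgeR's adjusted threshold in the 4 comparisons with Blank or Model. Among 13 other vessel receptors, 10 were lower in Model than in Blank (48.3% of all genes), with a median log2 fold change of -0.35. In YJZYT against Model 12 of 13 were lower (57.6% of all genes), with a median of -0.64. Ptprb, the phosphatase that restrains Tie2, had 31.6 ± 2.58 CPM in Blank, 16.0 ± 11.5 in Model and 6.75 ± 3.89 in YJZYT (SD, n = 3; F test over 5 groups, edgeR adjusted p = 0.633). S1pr1, the receptor of sphingosine-1-phosphate, had 70.5 ± 7.13, 55.7 ± 8.1 and 33.0 ± 11.7 CPM in the same groups (adjusted p = 0.561). Of 10 vessel growth factors, 6 were lower and 4 higher in Model than in Blank, close to the 48.3% of all genes that were lower. In YJZYT 9 of the 10 were lower than in Model (57.6% of all genes). Vegfa, the ligand of Kdr and Flt1, had 39.3 ± 5.74 CPM in Blank and 29.2 ± 3.27 in Model (adjusted p = 0.713). Angpt1, the activating ligand of Tie2, had 28.4 ± 9.47 and 17.1 ± 11.5 CPM (adjusted p = 0.725).

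Of 23 tested other endothelial genes, 19 were lower in Model than in Blank (48.3% of all genes). Their median was -0.55, close to that of the 9 genes, and 4 of 23 had an unadjusted p under 0.05, against 8.19% of all genes. Fabp4, a fatty acid carrier of capillary endothelium and of fat cells, had 209 ± 41.1 CPM in Blank and 54.2 ± 29.6 in Model, beside 112 ± 11.5 for SYT, 110 ± 50.1 for YJT and 47.1 ± 4.38 for YJZYT (F test, edgeR adjusted p = 0.17). Gpihbp1, which carries lipoprotein lipase to the capillary wall, had 16.2 ± 5.05 CPM in Blank and 5.68 ± 1.8 in Model (adjusted p = 0.445). Adipocyte markers, whose values are given beside the 9 genes, were lower in Model as well, and their part in the Fabp4 values was not tested. The 14 endothelial transcription factors were divided, with 5 lower and 9 higher in Model (51.7% of all genes higher). Sox17, an arterial factor, had 6.72 ± 1.88 CPM in Blank and 2.63 ± 0.873 in Model (adjusted p = 0.393). Lyl1 was higher in Model, with 52.2 ± 5.52 CPM in Blank, 57.8 ± 10.4 in Model and 92.0 ± 29.5 in YJZYT (adjusted p = 0.704).

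The 9 genes of the Notch pathway did not share the direction of the vessel receptors in Model against Blank, with 7 of 9 higher (51.7% of all genes) and a median of 0.10. In YJZYT against Model all 9 were lower (57.6% of all genes), with a median of -0.75. Notch1 had 44.4 ± 3.85 CPM in Blank, 51.6 ± 12.1 in Model, 74.8 ± 1.14 in YJT and 45.2 ± 12.5 in YJZYT (adjusted p = 0.636). Of the 12 genes of pericytes and vascular smooth muscle, the cells that wrap vessels, 11 were lower in Model than in Blank (48.3% of all genes). In YJZYT 11 of the 12 were lower than in Model (57.6% of all genes). Rgs5, a pericyte gene, had 62.8 ± 10.9 CPM in Blank, 37.9 ± 16.3 in Model, 61.3 ± 20.3 in YJT and 19.8 ± 8.62 in YJZYT (adjusted p = 0.422). Des, in the same list, is also a gene of skeletal muscle, and had 177 ± 39.9 CPM in Blank and 21.2 ± 14.2 in Model (adjusted p = 0.218).

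Scores of these lists were set beside the 8 genes and beside Apold1 over the 15 libraries. The score of the 8 genes had r = 0.98 with the other vessel receptors, 0.97 with other endothelial genes, and 0.94 with both the growth factors and the pericyte list. With skeletal muscle it had r = 0.67 (0.43 within groups) and with osteoblast markers 0.67 (0.79 within groups). With monocyte and macrophage markers it had 0.73 (0.79 within groups) and with erythroid markers -0.46 (-0.43 within groups). Apold1 had r = 0.18 with the other vessel receptors and 0.41 with other endothelial genes. Its highest values were 0.67 with skeletal muscle, which was 0.25 within groups, and 0.57 with immediate early genes, which was 0.47 within groups. The 8 other genes had a higher r with immediate early genes, 0.72 (0.56 within groups). Nr4a1, an immediate early gene, had 40.1 ± 12.2 CPM in Blank and 11.7 ± 4.72 in Model, beside 16.3 ± 3.24 for SYT, 30.2 ± 8.13 for YJT and 9.35 ± 3.35 for YJZYT (F test, edgeR adjusted p = 0.155), with Blank and YJT the highest means as for Apold1. Fos had its highest means in Blank and YJT too, at 25.8 ± 5.79 and 24.0 ± 11.5 CPM. Jun did not, with 34.3 ± 17.5 CPM in YJT and 37.0 ± 6.79 in SYT. Nor did Zfp36, with 67.5 ± 25.2 CPM in YJT and 71.7 ± 22.0 in Model. In Model against Blank 8 of 14 immediate early genes were lower (48.3% of all genes), with a median of -0.04. The points share library scaling, and the r values carry no test.

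**Figure D5:**
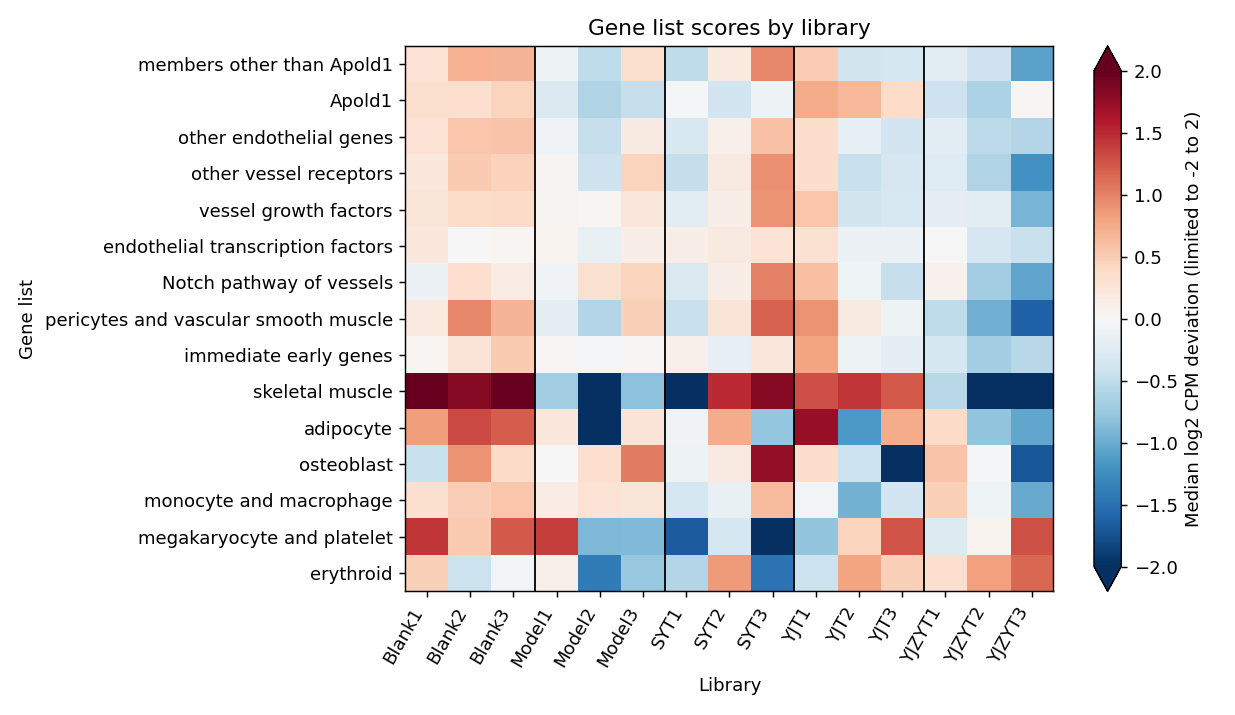
Scores of the gene lists (rows) in each of the 15 libraries (columns), with colour for the median log2 CPM deviation from the mean of all libraries. Vessel receptors, other endothelial genes and pericyte genes follow the endothelial genes from library to library, with SYT3 high and YJZYT3 low.

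The 13798 genes compared were tested genes with a symbol that reached a mean of 1 FPKM in at least 1 group. Of these, 117 (0.848%) had r above 0.9 with the score of all 9 genes, Apold1 included. The 8 most alike, by Pearson's r over 15 libraries, were Adgrl2 (r = 0.97), Epas1, Ptprm and Zcchc24 (each 0.96), and Mmrn2, Cd34, Klf9 and Adgrl4 (each 0.95). Without YJZYT3 and SYT3, the libraries farthest from the median score, these r values lay between 0.92 and 0.95. Epas1, which encodes the hypoxia factor HIF-2 alpha, had 118 ± 18.3 CPM in Blank, 78.8 ± 21.5 in Model and 50.6 ± 25.7 in YJZYT. For Apold1 only 1 gene (0.00725%) had r above 0.9. This was Dusp13 (r = 0.91), a phosphatase of muscle and testis with a mean FPKM of 0.474, followed by Itgb1bp2 (0.88), the muscle protein melusin, LOC102553715 (0.87), Trim55 (0.85), a ligase of muscle sarcomeres, and Zfp622 (0.85). Without YJT1 and YJT2 these lay between 0.82 and 0.90. Dusp13 and LOC102553715, at means of 0.474 and 0.819 FPKM, could enter the comparison only through groups where they were high. Their highest mean was in YJT, as for Apold1, at 2.37 and 3.61 CPM, beside 0.228 and 0.0971 CPM in YJZYT. The filter thus favoured their likeness to Apold1, which rests on low values.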

How the data were processed

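The authors deposited 1 table with a whole-number read count and an FPKM value for each gene in each of 15 libraries, per the file headers. Per the labels' protocols, poly(A) RNA was made into dUTP libraries with molecular identifiers and sequenced as paired ends. Tools listed in the submitters' processing notes, without their roles, are HISAT2 2.0.4 and StringTie 1.3.4d, then DESeq2, edgeR and UMI-tools, and cutadapt 1.9. The counting, its strand setting and the build were not given in the sources used here, so overlapping and antisense genes may share reads.

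The deposited counts (64472700 to 74255667 per library) were tested with edgeR 4.0.16 in R 4.3.3: filterByExpr, TMM factors (0.818 to 1.126) and a robust quasi-likelihood fit of 1 mean per group over all 15 libraries (10 residual degrees of freedom, biological coefficient of variation 42.7%). Tests were two-sided with Benjamini-Hochberg adjustment over 17657 genes and a threshold of 0.05; 4811 genes were left out by the filter. Log2 CPM used a prior count of 2, and a list score is the median log2 deviation of its genes from their means. The deposited FPKM values served for levels between genes, summed marker levels, ratios and limma 3.58.1 with a pseudocount of 1 or 0.1 on the log2 scale, over genes that reached 1 FPKM in at least 3 libraries. Fold changes on those scales understate changes of low genes. Ratios were compared with exact permutation tests. DESeq2 1.42.0, other scalings and filters, left-out libraries, the replicate number as a block and marker scores as covariates were tried as alternatives. The statistical steps were tested on simulated data.

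The genes and lists were chosen with earlier results of these data known. All 9 measured genes were named whatever their p. From each list up to 4 genes were eligible, those with the smallest p over the 5 groups. The 8 genes most like the score of all 9 genes and the 5 most like Apold1 were taken by Pearson's r. They came from tested genes with a symbol that reached a mean of 1 FPKM in at least 1 group. Replicate numbers were not taken as pairs.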

Additional observations from a re-analysis of the deposited data

How the results depend on the processing

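None of the 9 genes passed the adjusted threshold in any of the 7 comparisons or the F test with edgeR, under RLE or no scaling factors, no filter, the block or any left-out library. Kdr and Flt1 did not reach the mean FPKM of 5, and of the other 7 genes 0 passed under that filter. Apold1 was the 1 gene called under an alternative: with DESeq2 in Model against Blank, YJT against Model, YJZYT against YJT and the F test (1 of 9 each), with limma on log2(FPKM + 1) in YJZYT against YJT and the F test (1 each), and with the osteoblast score as a covariate in YJZYT against YJT (1). Over all genes, the main fit called 4, 0, 0 and 4 in the comparisons named for DESeq2. In the same order DESeq2 called 301, 97, 398 and 616, limma called 87 and 101, and the osteoblast covariate 162. That covariate moved the median in YJT against Model to 0.53. The cause was not tested. Of the other values, 777 kept their direction and side of the threshold and 5 passed it, all of Apold1. With the muscle score as a covariate, the log2 fold change was on the other side of zero for Kdr 0.072, Plvap 0.058 and Tie1 0.10 in Model against Blank, Flt1 -0.11, Kdr -0.14 and Tie1 -0.055 in SYT against Model, Cdh5 -0.25, Eng -0.16 and Flt1 -0.31 in YJT against Model and Kdr 0.093 in YJZYT against SYT. With limma on log2(FPKM + 0.1), the log2 fold change was on the other side of zero for Emcn -0.089, Flt1 -0.095, Kdr -0.12, Tek -0.034 and Tie1 -0.17 in SYT against Model, Flt1 -0.011 in YJT against Model and Apold1 -0.031 in YJZYT against Model. With limma on log2(FPKM + 1), the log2 fold change was on the other side of zero for Emcn -0.077, Flt1 -0.024, Kdr -0.076, Tek -0.018 and Tie1 -0.15 in SYT against Model, Flt1 -0.01 in YJT against Model and Apold1 -0.028 in YJZYT against Model. With no scaling factors, the log2 fold change was on the other side of zero for Kdr -0.032 and Tie1 -0.12 in SYT against Model, Eng -0.049 and Flt1 -0.01 in YJT against Model and Apold1 -0.027 in YJZYT against Model. With the osteoblast score as a covariate, the log2 fold change was on the other side of zero for Emcn 0.18, Kdr 0.25, Plvap 0.75, Tek 0.25 and Tie1 0.24 in YJT against Model and Plvap 0.047 in YJZYT against Model. With YJT3 and YJZYT3 left out, the log2 fold change was on the other side of zero for Plvap 0.26 in YJT against Model and Apold1 -0.076 in YJZYT against Model. Leaving out 1 library at a time changed the sign in SYT against Model for Emcn -0.24 to 0.45, Eng -0.013 to 0.72, Flt1 -0.32 to 0.71, Kdr -0.25 to 0.50, Plvap -0.055 to 1.01, Tek -0.12 to 0.51 and Tie1 -0.21 to 0.30. In YJT against Model, the same ranges were Cdh5 -0.27 to 0.53, Eng -0.21 to 0.42, Flt1 -0.28 to 0.55, Kdr -0.45 to 0.047, Plvap -0.57 to 0.35, Tek -0.41 to 0.026 and Tie1 -0.20 to 0.14. In YJZYT against Model, the same ranges were Apold1 -0.075 to 0.28 and Plvap -0.86 to 0.005. The causes were not tested, and the values reversed by left-out libraries rest on 1 library of 3.

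The labels do not say that a replicate number marks a shared animal, litter or day, and the correlation of deviations between same-numbered libraries ran from -0.418 to 0.40, so the numbers were not used as pairs. With the replicate number as a block, the median in Model against Blank was -0.62, in SYT against Model 0.28, in YJT against Model -0.03 and in YJZYT against Model -0.41, with 0 of 9 genes called in each comparison. With at least 406 counts per gene and library, counting error was small beside the spread between 3 libraries per group.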
